A study of Mus musculus with 8 samples.

Results

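The genes described here are 36 genes of glycolysis and of the response to hypoxia, followed through RNA-seq libraries of mouse embryonic stem cells (mESCs) with and without Importin-13 (IPO13), a bidirectional nuclear transporter. The genes were chosen by symbol as glycolytic enzymes, glucose and lactate transporters and targets of the transcription factor HIF1, and not by a threshold on measured values. All 36 were found among the 23420 gene symbols of the count tables, and all 36 were among the 19424 genes tested. The libraries form 4 groups of 2, namely untreated IPO13+/+ mESCs, IPO13+/+ mESCs after 125 uM H2O2, untreated IPO13-/- mESCs, and IPO13-/- mESCs after 125 uM H2O2. The oxidant was applied for 1 h and RNA was taken after 2 h in clean medium. All cells carry a mixed 129 x C57BL/6 background, derive from day 5 blastocysts and were grown without feeder cells in medium with serum and LIF. How many lines or clones stand behind each genotype is not given in the sources used here, so that a difference between genotypes cannot be told apart from other differences between lines, and nothing says whether replicates were separate cultures. P-values measure only the spread between these libraries, and the smallest p that exact permutation can give 2 libraries set against 2 is 0.333.

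Glycolysis splits glucose into pyruvate in preparatory steps, which consume ATP, and payoff steps, which return it, and lactate dehydrogenase turns pyruvate into lactate. HIF1A is the oxygen-regulated subunit of HIF1. When oxygen is present, prolyl hydroxylases of the EGLN family mark it for destruction, and when oxygen is short it accumulates and activates genes of glucose uptake, glycolysis, angiogenesis and mitophagy through DNA sites with the core ACGTG or GCGTG. Several of its targets, EGLN3 among them, act back on the pathway. Naive mESCs are known to use glycolysis together with mitochondrial respiration.

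The libraries held between 60397877 and 73789079 reads counted on genes. Ipo13 stood at 70.3 and 68.3 normalised CPM (counts scaled to a common library size, with TMM factors) in untreated IPO13+/+ cells and at 25.9 and 25.05 in untreated IPO13-/- cells, a log2 fold change of -1.44 (SE 0.05), so that part of its transcript was still counted in the knockout. All 9 markers of pluripotent cells were expressed, with summed levels of 7767 to 7925 CPM in untreated and 7409.6 to 7452 in treated IPO13+/+ cells, against 6596 to 6702 and 6564 to 6672 in IPO13-/- cells. The summed markers of other cells were low, with 14.2 to 20.96 CPM for 5 primitive endoderm markers and 29.2 to 57.3 for 5 trophectoderm markers. The 6 germ layer markers summed to 5.31 to 12.1 CPM and the 5 fibroblast markers to 6.29 to 9.19. Above the limit of 3 counts in each library were 4 of the trophectoderm, 4 of the germ layer and 3 of the fibroblast markers. The pluripotency and trophectoderm sums were lower in the IPO13-/- libraries (29.2 to 31.8 CPM for trophectoderm) than in the IPO13+/+ libraries (47.4 to 57.3), the germ layer and primitive endoderm sums were lower and the fibroblast sum higher after H2O2 in both genotypes without overlap, and their part in the differences below was not tested. The members of a list did not all move alike. Between untreated IPO13+/+ and IPO13-/- cells mean CPM fell for Dppa5a (1942 to 1294) and Krt8 (32.1 to 13.6). It was higher for Nanog (527 to 569), Klf4 (433 to 475) and Gata3 (2.04 to 3.20). After H2O2 in IPO13+/+ cells Col1a1 rose (2.31 to 4.54) and Thy1 fell (4.84 to 4.03). In bulk samples fewer cells of a type and less RNA per cell cannot be told apart. The replicates of untreated IPO13+/+ cells differed more than those of other groups, with a chi-square per gene of 15.0 against 2.26 to 6.59. In the second untreated IPO13+/+ library Slc16a3, Egln1, Egln3, Bnip3, Ankrd37 and Ndrg1 each exceeded the first library by more than the 95th percentile of the same difference over expressed genes (0.22 on the log2 scale). In treated IPO13-/- cells Slc16a3, Egln1, Egln3 and Ankrd37 likewise exceeded this percentile (0.19) in the second library, with 0.45 for Egln3.

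Together the 36 genes took between 1.62% and 1.74% of all counts, of which the 17 glycolytic enzymes and lactate dehydrogenases gave the larger part (1.25% to 1.41%). Per kb of all annotated exons of a gene joined, Pkm, the pyruvate kinase, had the highest level over all libraries at 802 CPM per kb. The order depends on the length used. The joined exons of Pkm span 5001 bases and its longest coding transcript 2432, against 4133 and 1420 for Gapdh. Gapdh, the first payoff enzyme, came next at 736. Aldoa followed at 492, then Pgk1 at 439.9 and Ldha at 429. The 10 other HIF1 targets lay far lower, from 34.99 CPM per kb for the histone demethylase Kdm3a down, with 0.95 for the collagen prolyl hydroxylase subunit P4ha2. Car9, a carbonic anhydrase and a common marker of hypoxia, was lowest at 0.0381 CPM per kb, with 4 to 9 counts per library, and no change of it could have been seen at this depth unless very large.

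**Figure D1:**
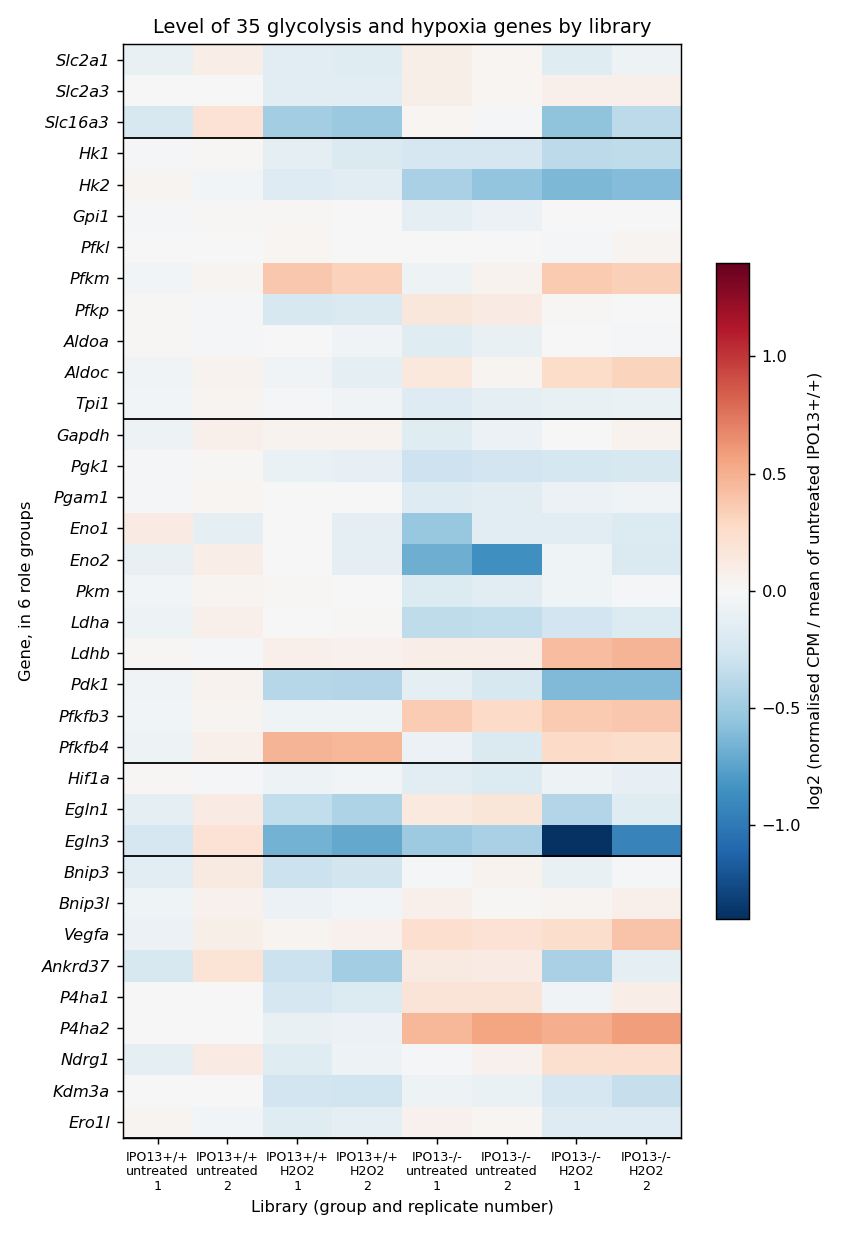
Level of 35 of the genes in each library (columns, grouped by genotype and treatment with the replicate number) as the log2 of normalised CPM over the mean of untreated IPO13+/+ cells; horizontal lines separate the 6 role groups and Car9 is left out for its low counts. Egln3, Slc16a3 and Pdk1 are lower after H2O2 in both genotypes, whereas Hk2 is lower and P4ha2 higher in all IPO13-/- libraries.

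Changes of these genes were common and small. In untreated cells 5 of the 36 genes were higher and 15 lower in IPO13-/- than in IPO13+/+ cells at an FDR below 0.05 (edgeR's quasi-likelihood test), beside 38.2% of all tested genes that passed in either direction, 18.7% higher and 19.4% lower. H2O2 raised 2 and lowered 15 of them in IPO13+/+ cells (all tested genes, 25.3% in either direction, 11.5% higher and 13.8% lower). In IPO13-/- cells it raised 11 and lowered 12 (all tested genes, 29.4%, 14.9% and 14.4%). After H2O2, 10 were higher and 7 lower in IPO13-/- cells (all tested genes, 36.6%, 19.1% and 17.5%). The stress responses of the genotypes differed for 3 of them, all with a higher value in IPO13-/- cells, against 2.71% of all tested genes (2.01% higher and 0.705% lower). None of the 36 changed 2-fold in any of these comparisons. The count was also 0 at an unadjusted p under 0.05 and with limma-voom or DESeq2. Of all tested genes 4.71%, 2.9%, 2.89%, 4.56% and 0.144% did, in the same order. Among the 12198 genes with a mean of at least 1 CPM, 168 were 2-fold higher and 171 lower in the first comparison. The others had 244 and 5, 250 and 18, 181 and 149, and 9 and 4. At these rates 0 of 36 lies near the share of expressed genes. No gene was lower in the interaction, where edgeR, limma-voom and DESeq2 each gave 0 also at an unadjusted p under 0.05.

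Expressed genes pass more often than all tested genes. Among the 12198 genes with a mean of at least 1 CPM, 53.5% passed between the untreated genotypes, close to the 55.6% of the 36. After H2O2 the 36 genes passed in 47.2% of cases in IPO13+/+ cells and 63.9% in IPO13-/- cells, beside 36.4% and 42.3% of the expressed genes. Between the treated genotypes 47.2% of the 36 passed, beside 50.9% of the expressed genes. The median log2 difference over the 36 lay at -0.01 between the untreated genotypes, -0.08 and 0.04 for the response of IPO13+/+ and IPO13-/- cells, and -0.00 between the treated genotypes. The split between higher and lower in untreated IPO13-/- cells depended on the scaling, since library totals without TMM factors gave 12 higher and 7 lower.

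**Figure D2:**
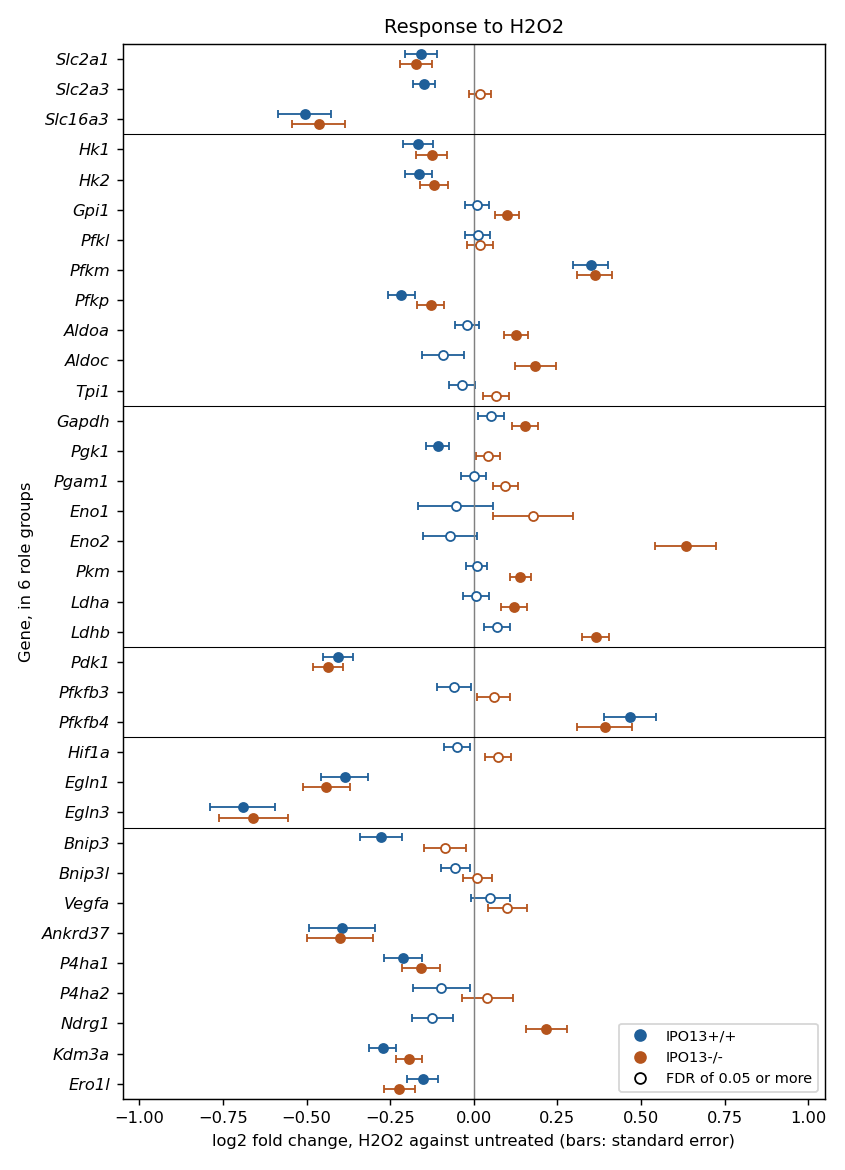
Log2 fold change after H2O2 (x axis) for 35 of the genes (y axis) in IPO13+/+ and IPO13-/- cells, with standard errors as bars and filled points where the FDR lies below 0.05. The responses of Egln3 (-0.69 and -0.66), Slc16a3 (-0.51 and -0.46) and Pfkm (0.35 and 0.36) nearly coincide between the genotypes, while those of Eno2 (-0.07 and 0.63) lie apart.

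The stress responses of the genotypes come from comparisons that share no libraries. Most lowered calls were common to both, as was the case for all tested genes. The 12 genes lowered in IPO13-/- cells were all among the 15 lowered in IPO13+/+ cells, that is 12 of 12 and 12 of 15, beside 58.6% and 61.3% of the calls over all tested genes. They are the glucose transporter gene Slc2a1, the lactate exporter gene Slc16a3, the hexokinases Hk1 and Hk2, the phosphofructokinase gene Pfkp, Pdk1, Egln1, Egln3, Ankrd37, P4ha1, Kdm3a and Ero1l. Both genes raised in IPO13+/+ cells, Pfkm and Pfkfb4, were also raised in IPO13-/- cells. No gene passed in opposite directions. A further 9 genes passed as raised in IPO13-/- cells alone (Gpi1, Aldoa, Aldoc, Gapdh, Eno2, Pkm, Ldha, Ldhb and Ndrg1), and 3 as lowered in IPO13+/+ cells alone (Slc2a3, Pgk1 and Bnip3), although the difference between the responses itself passed only for Eno2, Ldhb and Ndrg1. Several of these calls were not steady over the 16 alternatives. In IPO13+/+ cells those of Slc2a1 and Ero1l were lost in 9, that of Pgk1 in 11 and that of Ankrd37 in 6. In IPO13-/- cells that of Hk1 was lost in 8, those of Hk2 and P4ha1 in 6 and those of Pfkp and Ankrd37 in 4. Of the genes raised in IPO13-/- cells alone, Gpi1 lost its call in 7, Ldha in 5 and Aldoc in 4. Egln1, Egln3, Slc16a3, Pdk1, Kdm3a, Pfkm and Pfkfb4 passed in both genotypes under each of the 16 alternatives.

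The promoters of HIF1 targets are known to carry these cores, and the promoters of 5 genes that changed in the comparisons are shown for that reason. RefSeq promoters on GRCm38, from 250 bases before to 50 bases after the start, were at hand for 32 of the 36 genes, with 48 starts in all. They were searched on both strands for ACGTG and GCGTG, and CACGTG, which holds ACGTG on both strands, therefore counts as 2 overlapping matches. At least 1 core was found in 37 of the 48 promoters (77.1%), against 43.8% of all 32851 promoters of that length. ACGTG was in 52.1% of the 48 and 19.6% of all, GCGTG in 54.2% and 32.4%, and CACGTG in 10.4% and 7.15%. Of the 15 promoters of genes lowered by H2O2 in both genotypes, 11 (73.3%) had a core. Some of the 48 starts belong to the same gene and overlap, so that a core can count more than once. Bases 21 to 50 after the start occurred in a coding transcript of the gene for 41 of the 48. The genes were chosen as glycolysis genes and HIF1 targets, so that their share with a core is no independent support. The promoters below are written 5' to 3' along the gene, with each core on either strand in capitals. Egln3 (chr12:54203825-54204124, minus strand) and Slc16a3 (chr11:120948817-120949116, plus strand) were lowered by H2O2 in both genotypes, as was Ankrd37 (chr8:45999801-46000100, minus strand). Pfkfb4 (chr9:108991652-108991951, plus strand) was raised in both, and Ldha (chr7:46845554-46845853, plus strand) was lower in IPO13-/- cells.
Egln3: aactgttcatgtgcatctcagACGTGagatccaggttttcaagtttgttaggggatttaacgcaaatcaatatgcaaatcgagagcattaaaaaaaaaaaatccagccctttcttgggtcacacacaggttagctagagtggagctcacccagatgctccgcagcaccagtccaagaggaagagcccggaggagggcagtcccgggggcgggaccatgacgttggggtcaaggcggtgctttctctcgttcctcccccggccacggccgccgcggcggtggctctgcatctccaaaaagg
Slc16a3: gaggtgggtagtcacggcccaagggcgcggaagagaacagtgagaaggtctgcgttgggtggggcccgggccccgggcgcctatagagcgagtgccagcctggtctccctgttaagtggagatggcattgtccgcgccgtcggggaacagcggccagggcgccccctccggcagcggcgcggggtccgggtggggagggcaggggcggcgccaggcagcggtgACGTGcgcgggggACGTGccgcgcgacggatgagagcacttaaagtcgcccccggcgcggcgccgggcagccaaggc
Ankrd37: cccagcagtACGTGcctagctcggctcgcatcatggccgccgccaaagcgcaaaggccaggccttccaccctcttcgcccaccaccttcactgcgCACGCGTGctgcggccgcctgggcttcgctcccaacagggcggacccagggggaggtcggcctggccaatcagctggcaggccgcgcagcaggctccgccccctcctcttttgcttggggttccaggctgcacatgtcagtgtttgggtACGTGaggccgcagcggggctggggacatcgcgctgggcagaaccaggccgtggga
Pfkfb4: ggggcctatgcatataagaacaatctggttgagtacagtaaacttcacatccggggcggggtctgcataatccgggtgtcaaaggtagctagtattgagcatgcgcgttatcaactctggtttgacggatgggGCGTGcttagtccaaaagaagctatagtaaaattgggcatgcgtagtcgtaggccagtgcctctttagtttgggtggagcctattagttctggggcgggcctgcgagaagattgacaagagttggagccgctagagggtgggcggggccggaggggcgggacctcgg
Ldha: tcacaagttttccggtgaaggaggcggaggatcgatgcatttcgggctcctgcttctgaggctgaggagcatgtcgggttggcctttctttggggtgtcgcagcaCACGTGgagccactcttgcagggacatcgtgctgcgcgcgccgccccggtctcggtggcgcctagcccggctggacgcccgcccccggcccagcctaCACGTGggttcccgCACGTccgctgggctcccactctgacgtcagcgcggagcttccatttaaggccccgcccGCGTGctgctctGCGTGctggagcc
The Ldha promoter held 7 matches, the most of the 48, among them CACGTG at 2 places, whereas the promoters of Egln3 and Pfkfb4 held 1 each and that of Slc16a3 held 2 close to the start. A match is a run of letters and no measurement of binding.

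Glucose enters mESCs through the transporters encoded by Slc2a1 and Slc2a3, and SLC16A3 exports lactate. Slc2a3, the transporter gene with the highest level, measured 1616 and 1592 normalised CPM before and 1448 and 1446 after H2O2 in IPO13+/+ cells, and 1698 and 1636 before and 1689.5 and 1689 after it in IPO13-/- cells. It was thus lower in both treated IPO13+/+ libraries than in any other. The response was -0.15 (SE 0.03, edgeR FDR 0.0013) in IPO13+/+ and 0.02 (SE 0.03, FDR 0.74) in IPO13-/- cells, and the interaction of 0.17 (SE 0.05) missed the threshold with an FDR of 0.055. After treatment Slc2a3 was 0.22 (SE 0.03, FDR 5.3e-06) higher in IPO13-/- than in IPO13+/+ cells. Slc16a3 measured 54.8 and 73.7 CPM before and 45.8 and 44.8 after H2O2 in IPO13+/+ cells, and 65.3 and 63.6 before and 43.6 and 49.98 after it in IPO13-/- cells. The treated libraries lay below the untreated libraries of their genotype in each case. The changes of -0.51 (SE 0.08) and -0.46 (SE 0.08) both passed, but that of IPO13+/+ cells came to -0.28 without the second untreated library. Slc16a3, Egln3, Ankrd37, Pfkm, Pfkfb4, Hk2, P4ha2 and, further below, Bhlhe40 were chosen to be given by library after their values were seen. Slc2a1, the basal glucose transporter gene, fell by 0.16 (SE 0.05) and 0.17 (SE 0.05), with -0.06 and no call in IPO13+/+ cells without the second untreated library. The call of IPO13-/- cells was lost without the first treated library (-0.11) and without either untreated one.

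Of the 9 genes of the preparatory steps, from hexokinase to triosephosphate isomerase, 5 were lower and 1 higher in untreated IPO13-/- cells, or 2 and 2 with library totals. Beside them, 19.4% of all tested genes were lower and 18.7% higher, and 28.4% and 25.1% of the expressed genes. Hk2, the main hexokinase gene of these cells with over 90% of the hexokinase level per kb (90.7% to 92.6%), showed the clearest difference. It measured 464 and 439.6 CPM before and 400.0 and 406 after H2O2 in IPO13+/+ cells, against 329 and 308 before and 292 and 296 after it in IPO13-/- cells. All IPO13-/- libraries lay below all IPO13+/+ libraries, with log2 differences of -0.50 (SE 0.04, edgeR FDR 1.1e-10) before and -0.46 (SE 0.04, FDR 7.8e-10) after H2O2. Hk1, which encodes the hexokinase of most adult tissues, was lower by less (-0.24 and -0.19), and its share of the pair went from 7.65% (SD 0.38) to 9.06% (SD 0.39) between the untreated genotypes. Aldoa, the aldolase gene that gave about 99% of the aldolase level per kb, had the highest CPM of the group, with 1490.3 and 1456 before and 1483 and 1423 after H2O2 in IPO13+/+ cells, and 1309 and 1375 before and 1469.8 and 1457 after it in IPO13-/- cells. It was lowest in the untreated IPO13-/- libraries, with a genotype difference of -0.13 (SE 0.04, FDR 0.0035) before and 0.01 (SE 0.04, FDR 0.87) after H2O2. The genotype call was lost with library totals and without the first untreated IPO13-/- library. Among the other genes lower in untreated IPO13-/- cells, Gpi1 lost its call in 10 of the 16 alternatives and Tpi1 in 2.

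The phosphofructokinases catalyse the committed step, and their genes went different ways after H2O2. Pfkm, the muscle-type gene, measured 30.0 and 31.5 CPM before and 39.9 and 38.5 after H2O2 in IPO13+/+ cells, and 29.3 and 31.9 before and 39.7 and 38.8 after it in IPO13-/- cells. It rose 1.27-fold and 1.28-fold, with no overlap between treated and untreated libraries and no difference between the genotypes beyond the error (0.00, SE 0.05 after H2O2). Pfkp, the platelet-type gene, fell by 0.22 (SE 0.04) and 0.13 (SE 0.04) on the log2 scale and was higher in IPO13-/- cells before (0.14, SE 0.04) and after treatment (0.22, SE 0.04). The fall in IPO13-/- cells lost its call without any 1 of the 4 IPO13-/- libraries, and the untreated genotype difference without the first untreated IPO13-/- library. Pfkl, the liver-type gene and the most abundant of the trio, lay between 298 and 312 CPM in all libraries and passed in no comparison. Per kb, Pfkm thereby went from 13.9% (SD 0.40) to 17.4% (SD 0.23) of the trio in IPO13+/+ cells and from 13.7% (SD 0.74) to 16.99% (SD 0.55) in IPO13-/- cells. The size of such shares, here and for the pairs, depends on the length used. The joined exons of Pfkp span 13401 bases and its longest coding transcript 4145.

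**Figure D3:**
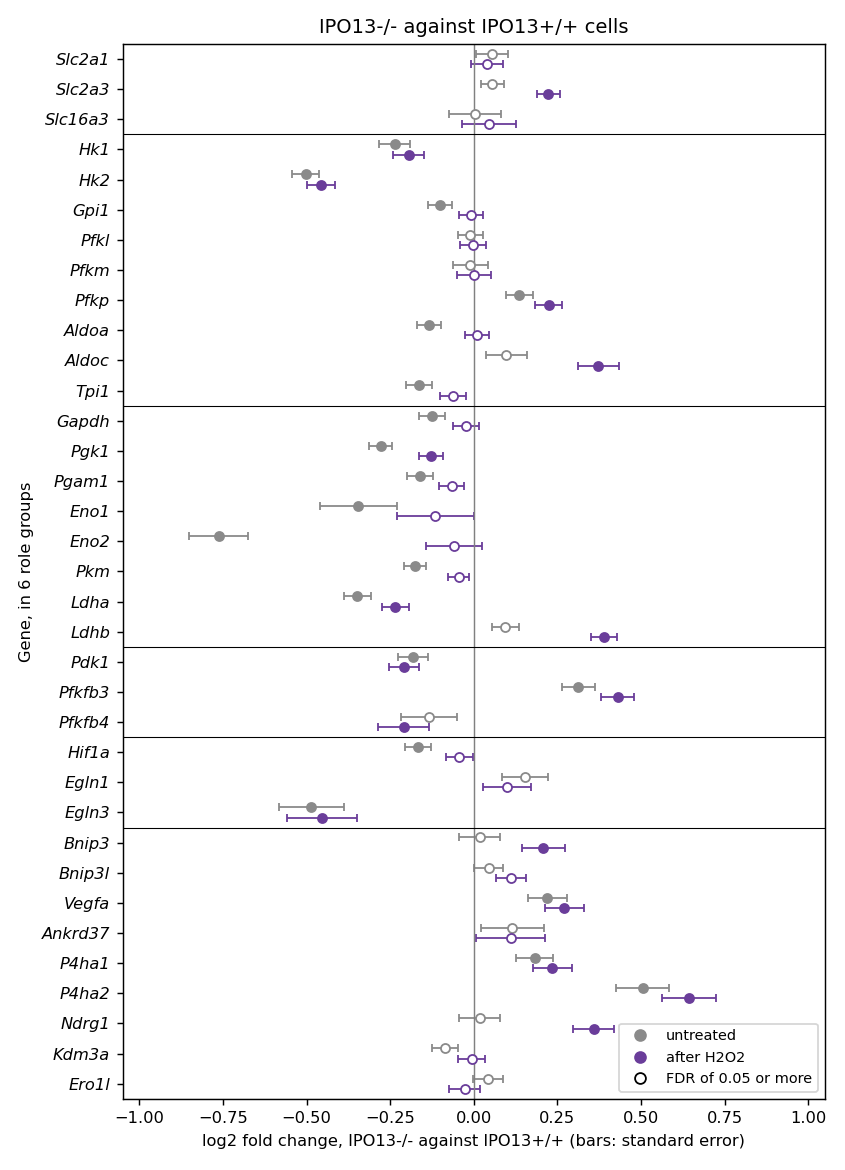
Log2 fold change of IPO13-/- against IPO13+/+ cells (x axis) for 35 of the genes (y axis), untreated and after H2O2, with standard errors as bars and filled points where the FDR lies below 0.05. Hk2 (-0.50 and -0.46) and P4ha2 (0.51 and 0.64) differ alike in both states, while Eno2 is lower in untreated IPO13-/- cells (-0.76) and not after H2O2 (-0.06, not past the threshold).

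Of the 8 genes of the payoff steps and of lactate dehydrogenase, 7 were lower in untreated IPO13-/- cells. With library totals 4 of 8 were lower and 1 higher. Beside them, 19.4% of all tested genes and 28.4% of the expressed genes were lower. Among the 7 was Eno1, counted at only 2.48 to 3.89 CPM. Its near copy Gm5506 was higher in these cells (means of 297 against 178 CPM), so that the call of Eno1 does not stand for the enolase pair. The median log2 difference of the 8 was -0.23, or -0.15 with library totals. Pkm, the group's highest gene, measured 4051 and 4253 CPM before and 4204 and 4149 after H2O2 in IPO13+/+ cells, and 3634 and 3713 before and 3991 and 4102 after it in IPO13-/- cells. It was lowest in both untreated IPO13-/- libraries. The genotype difference was -0.18 (SE 0.03, edgeR FDR 7.2e-05) before and -0.05 (SE 0.03, FDR 0.31) after H2O2, and this difference passed under each of the 16 alternatives in untreated cells. Ldha, which encodes the M subunit of lactate dehydrogenase, was lower by 0.35 (SE 0.04, FDR 5.3e-08) before and 0.23 (SE 0.04, FDR 2.4e-05) after treatment. Pgk1, the phosphoglycerate kinase gene, was lower by 0.28 (SE 0.03) and 0.13 (SE 0.03). The differences of Gapdh (-0.12), Pgam1 (-0.16) and Eno1 (-0.35) in untreated cells were each lost with library totals and without the first untreated IPO13-/- library. H2O2 raised 5 of the 8 in IPO13-/- cells (Gapdh, Eno2, Pkm, Ldha and Ldhb) and none in IPO13+/+ cells, where edgeR gave 0 rises also at an unadjusted p under 0.05 and limma-voom and DESeq2 gave 0, but library totals gave 1, as did the fit without the second untreated IPO13+/+ library. Of the rises, that of Ldha was lost in 5 of 16 alternatives, DESeq2 among them, that of Gapdh in 2 and that of Pkm in 1, each of them without the first untreated IPO13-/- library. The comparison of the untreated genotypes and the response of IPO13-/- cells share the untreated IPO13-/- libraries. After H2O2 only 2 of the 8, Ldha and Pgk1, were lower in IPO13-/- cells, and Ldhb was higher. Of all tested genes, H2O2 raised 14.9% in IPO13-/- and 11.5% in IPO13+/+ cells. Between the treated genotypes 17.5% of them were lower and 19.1% higher in IPO13-/- cells.

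Some of these genes share long stretches with other genes, and their counts are uncertain to that extent. Stretches of at least 100 bases with at least 98% identity covered 88.0% of the Gapdh transcript, shared with 41 other annotated genes, 85.6% of Eno1, 76.8% of Ldhb, 68.8% of Pgk1, 68.6% of Bnip3, 65.5% of Pkm, 45.5% of Gpi1, 43.1% of Pgam1 and 34.7% of Bnip3l. Eno1, the widely expressed enolase gene, was counted at only 2.48 to 3.89 CPM, and its near copy Gm5506, which RefSeq lists as Eno1b, at 177 to 326 CPM. Reads of the pair cannot be told apart over most of their length. The other genes with such a stretch shared 3.31% to 18.0%, with 11.1% for Ankrd37 and 16.4% for Ndrg1, and Hk2, Pfkm, Eno2, Ldha, Pdk1, Egln3 and Slc16a3 shared none.

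The 3 regulators control the flux through glycolysis or out of it. PDK1 phosphorylates pyruvate dehydrogenase and so keeps pyruvate from the mitochondria, and its gene had the highest CPM of the group. Pdk1 measured 133 and 143 CPM before and 105 and 104 after H2O2 in IPO13+/+ cells, and 125 and 118 before and 90.1 and 89.9 after it in IPO13-/- cells. The treated libraries were the lower in both genotypes without overlap. The responses were -0.41 (SE 0.04, edgeR FDR 4.7e-08) and -0.43 (SE 0.04, FDR 1.3e-08), and the gene was also lower in IPO13-/- cells by 0.18 (SE 0.04) before and 0.21 (SE 0.04) after H2O2. The untreated difference lost its call with library totals (-0.10) and without the second untreated IPO13-/- library (-0.13). PFKFB3 and PFKFB4 make fructose 2,6-bisphosphate, the activator of phosphofructokinase. Pfkfb4 measured 5.31 and 5.87 CPM before and 7.78 and 7.68 after H2O2 in IPO13+/+ cells, and 5.29 and 4.86 before and 6.75 and 6.61 after it in IPO13-/- cells, so that both responses went up, by 0.47 (SE 0.08) and 0.39 (SE 0.08). Pfkfb3 did not respond past the threshold (-0.06 and 0.06, SE 0.05 each) but was higher in IPO13-/- cells, by 0.31 (SE 0.05) before and 0.43 (SE 0.05) after H2O2, under each of the 16 alternatives. Pfkfb4 accordingly held 26.6% (SD 0.23) of the pair's level per kb in treated IPO13+/+ cells and 15.5% (SD 0.17) in untreated IPO13-/- cells, with 20.0% (SD 0.60) and 18.8% (SD 0.23) in the remaining groups.

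**Figure D4:**
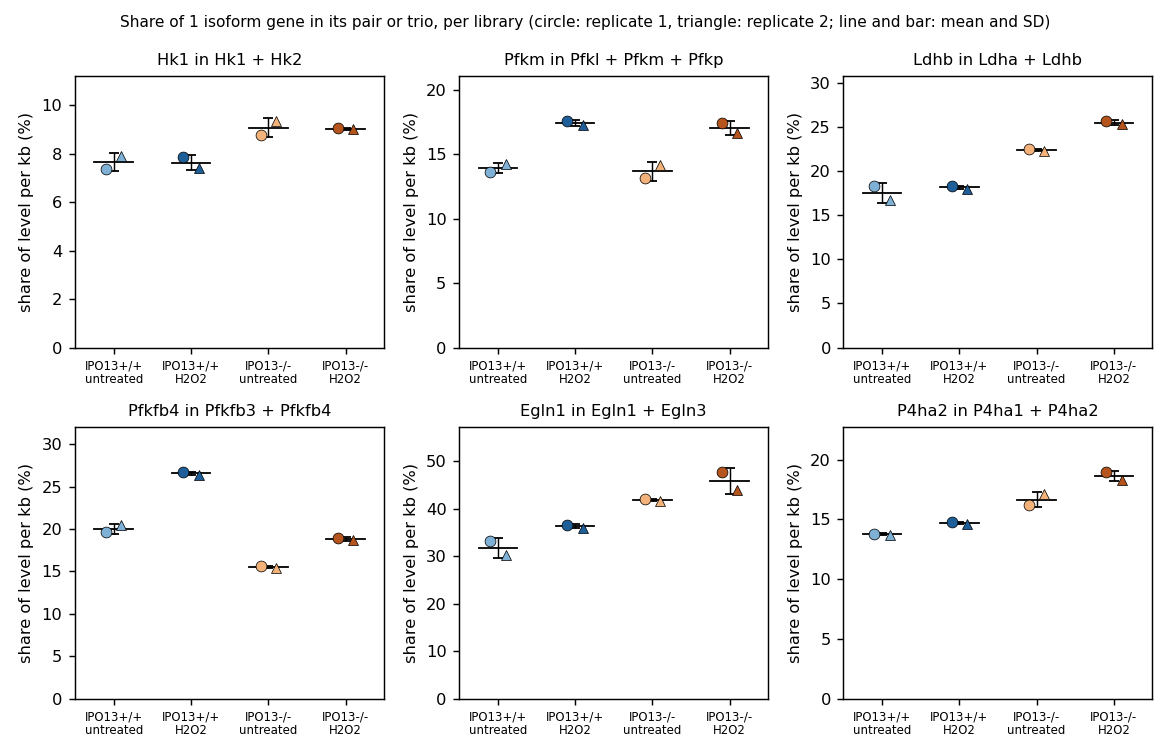
Share of 1 isoform gene in the summed level per kb of its pair or trio (y axis, percent) in the 4 groups, with replicate 1 as circle, replicate 2 as triangle, and mean and SD as line and bar (n = 2). The Ldhb share is 17.5% and 18.1% in untreated and treated IPO13+/+ cells and 22.4% and 25.5% in IPO13-/- cells, and the Pfkm share is higher in the treated libraries of both genotypes.

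Of HIF1A and its hydroxylases, Hif1a itself had the highest CPM, with 229 and 224 before and 216 and 221 after H2O2 in IPO13+/+ cells, and 205 and 199 before and 216 and 209 after it in IPO13-/- cells. The untreated IPO13-/- libraries were the lowest, by 0.17 (SE 0.04, edgeR FDR 0.0012), a call that was lost with library totals. H2O2 did not change Hif1a past the threshold in either genotype (-0.05 and 0.07, SE 0.04 each). HIF1 is regulated chiefly through the stability of the HIF1A protein, which these libraries do not measure. Egln3 had the largest change of any of the 36 genes after H2O2. It measured 36.9 and 50.2 CPM before and 27.4 and 26.5 after H2O2 in IPO13+/+ cells, and 30.5 and 31.7 before and 16.7 and 22.8 after it in IPO13-/- cells. Treated libraries lay below untreated ones in each genotype, and IPO13-/- libraries below IPO13+/+ ones in each state. The responses were -0.69 (SE 0.10, FDR 3.9e-06) and -0.66 (SE 0.10, FDR 1.5e-05), with an interaction of 0.03 (SE 0.14). Without the second untreated IPO13+/+ library the response of that genotype was -0.45, and without the first treated IPO13-/- library that of the knockout was -0.44. The genotype differences of -0.49 (SE 0.10) and -0.45 (SE 0.11) were less steady. The untreated difference was -0.25 without the second IPO13+/+ library and lost its call without the first IPO13-/- library, and the treated difference was -0.24 (FDR 0.10) without the first treated IPO13-/- library and -0.70 without the second. Egln1, the main oxygen sensor of most cells, fell by 0.39 (SE 0.07) and 0.44 (SE 0.07), although the first value came to -0.26 without the second untreated IPO13+/+ library, and it did not differ between the genotypes past the threshold. Per kb, Egln1 was 31.8% (SD 2.10) of the pair in untreated IPO13+/+ cells and 45.8% (SD 2.71) in treated IPO13-/- cells, with the other groups between them.

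The remaining 10 genes are targets of HIF1 outside glycolysis, and 5 of them fell in IPO13+/+ cells and 4 in IPO13-/- cells after H2O2. Of all tested genes 13.8% and 14.4% were lower, and of the expressed genes 21.4% and 21.5%. Kdm3a, the highest of them by CPM, measured 321 and 320.0 before and 266 and 264 after H2O2 in IPO13+/+ cells, and 304 and 299 before and 272 and 256 after it in IPO13-/- cells. Both responses, -0.27 (SE 0.04) and -0.19 (SE 0.04), were without overlap. Ankrd37, a small ankyrin-repeat gene, measured 12.2 and 16.3 CPM before and 11.6 and 10.1 after H2O2 in IPO13+/+ cells, and 15.5 and 15.4 before and 10.4 and 13.1 after it in IPO13-/- cells. Its responses of -0.39 (SE 0.10, edgeR FDR 0.0035) and -0.40 (SE 0.10, FDR 0.0025) depended on single libraries, since the first was -0.17 without the second untreated IPO13+/+ library and the second -0.23 without the first treated IPO13-/- library, neither past the threshold. The mitophagy receptor gene Bnip3 fell by 0.28 (SE 0.06) in IPO13+/+ cells, with -0.13 and no call without the same untreated library, while its relative Bnip3l passed in no comparison. P4ha1 and Ero1l, which serve collagen hydroxylation and the formation of disulfide bonds, fell by 0.15 to 0.22 in both genotypes. The response of P4ha1 in IPO13-/- cells was -0.08 without the first treated library.

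Between the genotypes 3 of these 10 genes were higher in IPO13-/- cells before H2O2 and 5 of 10 after it. Beside them, 25.1% and 26.5% of the expressed genes were higher. None of the 10 was lower (0 also with limma-voom and DESeq2, and 1 and 0 with edgeR at an unadjusted p under 0.05). Of the expressed genes 28.4% and 24.4% were lower, and of all tested genes 19.4% and 17.5%. The lack of lower calls holds for the 10 genes and not for HIF1 targets at large. Egln3 and most further targets that passed, described below, were lower. P4ha2 measured 4.93 and 4.92 CPM before and 4.57 and 4.64 after H2O2 in IPO13+/+ cells, against 6.80 and 7.22 before and 6.996 and 7.40 after it in IPO13-/- cells. The genotypes did not overlap, with differences of 0.51 (SE 0.08, edgeR FDR 8.1e-06) and 0.64 (SE 0.08, FDR 2.8e-07) that passed under each of the 16 alternatives. Vegfa, which encodes the main angiogenic growth factor, was higher by 0.22 (SE 0.06) and 0.27 (SE 0.06), the former 0.14 and not past the threshold without the first untreated IPO13+/+ library. P4ha1 was higher by 0.18 (SE 0.06) and 0.23 (SE 0.06), and Bnip3 and Ndrg1 passed after H2O2 and not before it (0.21 and 0.36, SE 0.06 each). P4ha1 lost its call without either untreated IPO13-/- library before and without the second treated one after H2O2, and Bnip3 lost it in 4 of 16 alternatives. In comparisons that share no libraries, all 5 genes higher in untreated IPO13-/- cells (Pfkp, Pfkfb3, Vegfa, P4ha1 and P4ha2) were among the 10 higher after H2O2. Of the 15 genes lower in untreated IPO13-/- cells, 6 (Hk1, Hk2, Pgk1, Ldha, Pdk1 and Egln3) were lower after H2O2, which makes 6 of 7 there. For all tested genes the calls shared between these genotype comparisons were not counted. Whether such an overlap is particular to the genes described here was therefore not tested.

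**Figure D5:**
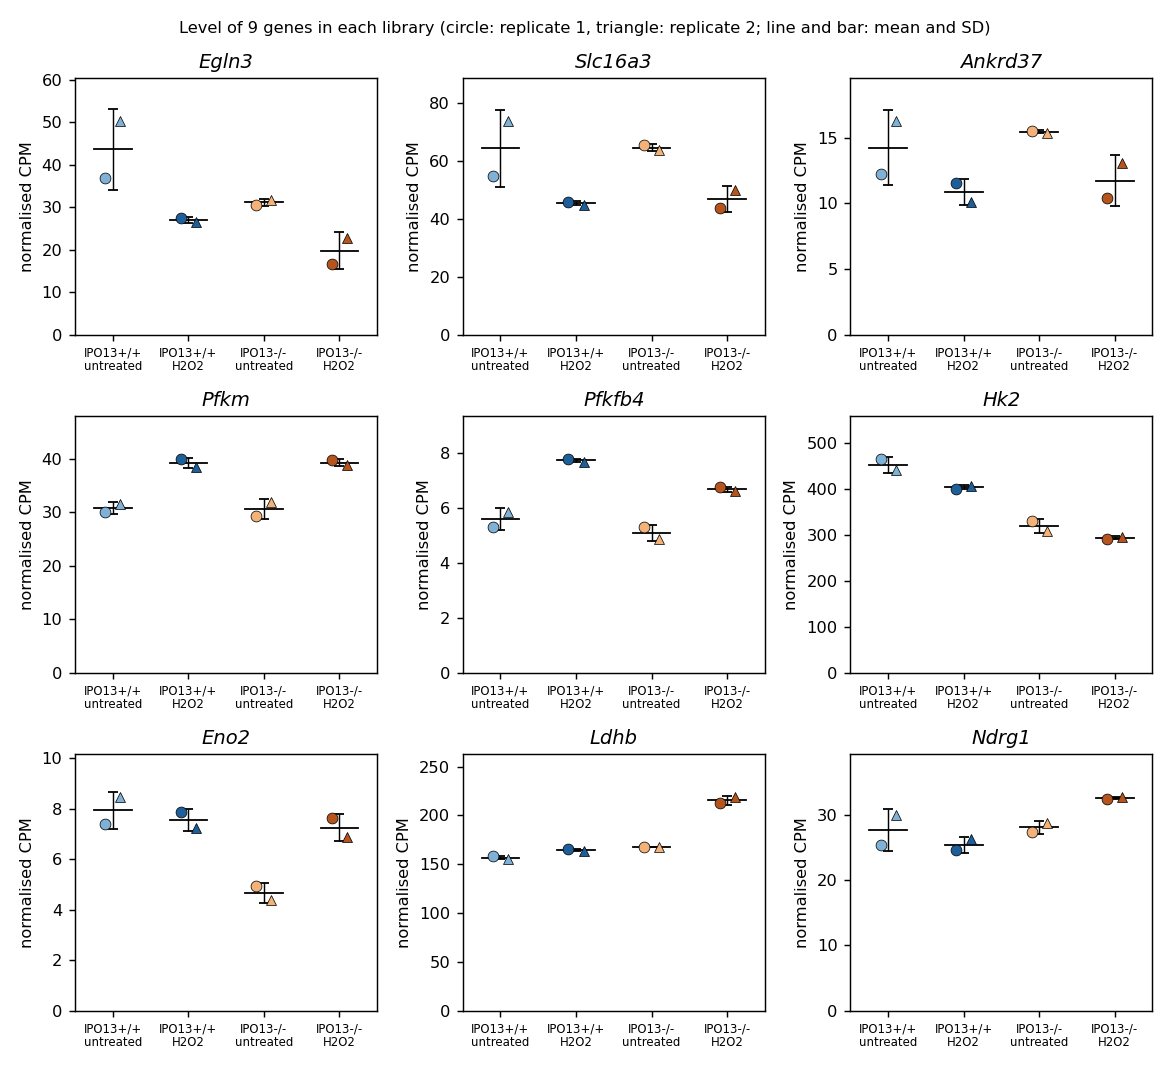
Normalised CPM (y axis, from 0) of 9 genes in each of the 8 libraries, with replicate 1 as circle, replicate 2 as triangle, and mean and SD as line and bar (n = 2). Egln3 and Slc16a3 are lower in treated libraries of both genotypes, Hk2 is lower in all IPO13-/- libraries, Eno2 is lowest in untreated IPO13-/- cells (4.94 and 4.38 CPM) and Ldhb highest in treated IPO13-/- cells (212 and 219 CPM).

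The difference between the stress responses passed for Eno2, Ldhb and Ndrg1. Eno2, the enolase gene best known from neurons, measured 7.41 and 8.46 CPM before and 7.88 and 7.25 after H2O2 in IPO13+/+ cells, and 4.94 and 4.38 before and 7.63 and 6.89 after it in IPO13-/- cells. The untreated IPO13-/- libraries were the low ones, and the other 6 overlapped. The genotype difference was -0.76 (SE 0.09, edgeR FDR 7.7e-08) before and -0.06 (SE 0.08, FDR 0.64) after H2O2, H2O2 raised the gene by 0.63 (SE 0.09, FDR 3.5e-06) in IPO13-/- cells, and the interaction was 0.70 (SE 0.12, FDR 0.00091). Ldhb, which encodes the H subunit of lactate dehydrogenase, measured 158 and 156 CPM before and 165 and 164 after H2O2 in IPO13+/+ cells, and 167 and 167 before and 212 and 219 after it in IPO13-/- cells. Here the treated IPO13-/- libraries were the ones apart, above all others, with a response of 0.36 (SE 0.04, FDR 3.0e-08) against 0.07 (SE 0.04, FDR 0.23) and an interaction of 0.30 (SE 0.06, FDR 0.0022). Together with the lower Ldha, Ldhb went from 17.5% (SD 1.14) of the pair's level per kb in untreated IPO13+/+ cells to 25.5% (SD 0.26) in treated IPO13-/- cells. Ndrg1, a gene induced by hypoxia and by differentiation, measured 25.4 and 29.9 CPM before and 24.5 and 26.3 after H2O2 in IPO13+/+ cells, and 27.3 and 28.8 before and 32.4 and 32.7 after it in IPO13-/- cells. It was highest in the treated IPO13-/- libraries, and its interaction was 0.34 (SE 0.09, FDR 0.030). The interactions of Eno2 and Ldhb lost their call without either untreated IPO13-/- library (Eno2 0.78 and 0.62, Ldhb 0.28 and 0.29), and that of Ndrg1 in 11 of 15 alternatives.

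Further genes of the same pathways, from lists set apart from the 36, were also tested. Of 31 further genes of glucose metabolism, 30 were tested and 3 (10.0%) were higher and 7 (23.3%) lower in untreated IPO13-/- cells, a share of 33.3% in all that lies below the 38.2% of all tested genes. Ldhc (-1.15, SE 0.11) and Fbp2 (-1.08, SE 0.12), a lactate dehydrogenase of the testis and a gluconeogenic phosphatase, fell below the 2-fold line there, as did the rare Hkdc1 (-1.50, SE 0.44), which had -0.98 and no call without the first untreated IPO13-/- library. H2O2 raised 5 and lowered 4 of the 30 in IPO13+/+ cells, and raised 6 and lowered 3 in IPO13-/- cells, 30.0% each time beside 25.3% and 29.4% of all tested genes. The pyruvate dehydrogenase kinase gene Pdk4 moved opposite to Pdk1, with 0.25 (SE 0.06) in IPO13+/+ and 0.81 (SE 0.06) in IPO13-/- cells and an interaction of 0.55 (SE 0.08, edgeR FDR 0.00020), which missed the threshold without the first untreated IPO13-/- library. The lactate transporter gene Slc16a1 fell by 0.25 (SE 0.04) in IPO13+/+ cells and not past the threshold in IPO13-/- cells (0.03, SE 0.04), with an interaction of 0.28 (SE 0.05, FDR 0.0030) that missed the threshold without either untreated IPO13-/- library. The phosphatase gene Fbp1, at under 1 CPM, rose in both genotypes (1.37, SE 0.30 and 1.06, SE 0.31), the latter without a call when the second untreated (0.76) or second treated (0.88) IPO13-/- library was left out. Hkdc1 rose in IPO13-/- cells (1.47, SE 0.45), with 0.97 and no call without the first untreated IPO13-/- library.

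Among 8 further genes of the HIF system, which include Epas1, Arnt, Vhl and Hif1an, 1 was higher and 3 lower in IPO13-/- cells both before and after H2O2. This is 50% each time, beside 38.2% and 36.6% of all tested genes and 53.5% and 50.9% of the expressed genes. H2O2 lowered 3 and raised none in IPO13+/+ cells (37.5%, beside 25.3% of all tested and 36.4% of the expressed genes). There edgeR at an unadjusted p under 0.05, limma-voom and DESeq2 likewise gave 0 rises. In IPO13-/- cells H2O2 lowered 3 and raised 1 (50%, beside 29.4% of all tested and 42.3% of the expressed genes). Cited2, which encodes a competitor of HIF1A for its coactivator, was lower in IPO13-/- cells by 0.75 (SE 0.04) before and 0.50 (SE 0.04) after H2O2, and its interaction of 0.25 (SE 0.06, edgeR FDR 0.027) was lost in 8 of 15 alternatives.

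A list of 28 further HIF targets included single genes that moved far more than any of the 36. H2O2 raised 10 (35.7%) and lowered 5 (17.9%) of them in IPO13+/+ cells, beside 11.5% and 13.8% of all tested genes, and raised 10 (35.7%) and lowered 6 (21.4%) in IPO13-/- cells, beside 14.9% and 14.4%. Their median responses were 0.00 and 0.03. Before treatment 3 (10.7%) were higher and 13 (46.4%) lower in IPO13-/- cells, beside 18.7% and 19.4% of all tested genes. After it 6 (21.4%) were higher and 9 (32.1%) lower, beside 19.1% and 17.5%. Of the expressed genes 25.1% were higher and 28.4% lower before treatment, and 26.5% and 24.4% after it. The transcriptional repressor gene Bhlhe40 measured 40.4 and 40.0 CPM before and 63.8 and 63.1 after H2O2 in IPO13+/+ cells, and 27.8 and 27.01 before and 73.3 and 74.3 after it in IPO13-/- cells. Its relative Bhlhe41 rose by 1.76 (SE 0.08) and 2.73 (SE 0.08), and both interactions passed (0.77, SE 0.06 and 0.97, SE 0.12). Ddit4, an inhibitor of mTORC1 induced by many stresses, rose by 1.35 (SE 0.05) and 1.46 (SE 0.06), and Hmox1, the haem oxygenase gene that NRF2 also induces, by 0.57 (SE 0.04) and 1.02 (SE 0.04) with an interaction of 0.45 (SE 0.05). The carbonic anhydrase gene Car12 (1.87, SE 0.17 and 1.62, SE 0.15) and Ppp1r3c, a gene of glycogen synthesis at under 1 CPM (1.24, SE 0.34 and 1.21, SE 0.30), rose in both genotypes, and Wsb1 had an interaction of 0.34 (SE 0.06, edgeR FDR 0.0013). That of Wsb1 was lost without either untreated IPO13-/- library. The response of Ppp1r3c had no call without the first untreated (0.78) or first treated (0.98) IPO13+/+ library, nor, in IPO13-/- cells, without the first untreated library (1.11).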

How the data were processed

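RNA was sequenced from 8 libraries, 2 for each genotype and treatment. The authors aligned reads with STAR 2.3.1 to mm10 and counted them on genes with HTSeq, per the submitters' processing notes, and deposited raw counts and CPM for 23420 symbols per library. The deposited CPM lay within 0.0005 of counts over the library total and were used only for that check. Symbols damaged by date conversion (27) and 4 repeated symbols were kept as written. Counts were fitted with edgeR 4.0.16 (TMM, quasi-likelihood, all 8 libraries, 1 coefficient per group) in R 4.3.3 for 19424 genes, those counted at least once in some library, so that all groups share 1 estimate of the spread. Genes passed at a Benjamini-Hochberg FDR below 0.05 over all tested genes, and the study's 2-fold limit was counted beside it. SE is the log2 fold change over the root of F. The scripts were tested on simulated data.

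The 36 genes, the role groups and the further lists were chosen with earlier results of these data known. Values are given per library for genes whose interaction passed and for the gene with the highest mean CPM in each role group, and for others where stated. Levels and shares per kb used the joined length of all GENCODE exons of a gene, which can exceed that of its transcripts. Promoters came from RefSeq (GRCm38.p6), and shared stretches were found with BLAST 2.17.0. Alternatives were limma-voom (limma 3.58.1), DESeq2 1.42.0, other scalings and filters, a replicate block, fits to only the libraries compared, and leaving out each library. A lone remaining library was then assumed to vary like the other groups. Totals of 60397877 to 73789079 counts set a limit of 3 counts at 0.0407 to 0.0497 CPM, for counting error only.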

Additional observations from a re-analysis of the deposited data

Results flagged for a closer look

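The stress response differed between the genotypes by the interaction test of edgeR for 3 of the 36 genes. The difference was 0.70 for Eno2 (FDR 0.00091), 0.30 for Ldhb (FDR 0.0022) and 0.34 for Ndrg1 (FDR 0.030), each higher in IPO13-/- cells. For Eno2 the untreated IPO13-/- libraries were the ones apart, and for Ldhb and Ndrg1 the treated ones. Ldhb shares 76.8% of its transcript with Gm5514, whose part in the value was not tested.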

How the results depend on the processing

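With a 2-fold limit beside the FDR, 0 of the 36 genes passed in each of the 5 comparisons. A fit to only the libraries compared gave 10 calls for the stress response of IPO13+/+ cells in place of 17. The replicate numbers were not shown to pair the libraries, since the deviations of same-numbered libraries correlated between -0.07 and 0.58 over 9907 genes. With the replicate block the counts were 23 between the untreated genotypes, 17 and 24 for the responses of IPO13+/+ and IPO13-/- cells, 18 between the treated genotypes and 8 for the interaction, in place of 20, 17, 23, 17 and 3. Leaving out each library in turn gave 10 to 23, 12 to 17, 11 to 24, 13 to 18 and 0 to 11 calls. The interaction had 0 calls without either untreated IPO13-/- library and 11 without the first untreated IPO13+/+ library, and the lows of 10 and 11 came without the first untreated IPO13-/- library. No named gene changed direction past the threshold under any alternative run. Library totals without TMM factors moved the untreated split from 5 higher and 15 lower to 12 and 7. The causes were not tested. With 2 libraries per group, differences of about 0.1 on the log2 scale are near the limit of what passed.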

Other observations

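The enolase copy Gm5506, named after its values were seen, measured 179.6 and 177 CPM before and 189 and 184 after H2O2 in IPO13+/+ cells, and 288 and 307 before and 326 and 324 after it in IPO13-/- cells. All IPO13-/- libraries lay above all IPO13+/+ libraries, with log2 differences of 0.74 (SE 0.04, edgeR FDR 3.7e-14) before and 0.80 (SE 0.04, FDR 8.4e-15) after H2O2. Eno1 had -0.35 (SE 0.12) and -0.12 (SE 0.12) in the same comparisons, and how reads were divided between the copies was not tested.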
